A study of Mus musculus with 2 samples.

Results

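The fibroblast growth factor (FGF) family of mouse and its feedback inhibitors were described in the heart at embryonic day 15.5. Members were the protein-coding genes named Fgf, Fgfr, Fgfrl, Spry or Spred followed by a number alone in the GENCODE M21 annotation. They came to 33 of the 21474 protein-coding genes with rows in both expression tables, namely 15 secreted ligands, 3 endocrine ligands, 4 intracellular factors, 5 receptors and 6 feedback genes. Spry3 met the naming rule and was not analysed here. The material was healthy heart tissue of strain B6NCrl with male and female embryos mixed, and the labels name no altered gene and no agent. Replicate 2 was a pool of hearts from 62 embryos and replicate 1 a separate pool from 78 embryos, so variation between single embryos was averaged out before sequencing. Both pools belong to 1 group, and the design holds no control or treated condition. The comparisons made here are therefore between genes inside a library, between transcript forms of a gene, and between the pools as a measure of spread.

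FGF signalling starts when a secreted ligand, held by heparan sulfate, brings together receptor tyrosine kinases at the cell surface, which then switch on the RAS and ERK cascade. Sprouty (Spry) and Spred proteins are inhibitors of that cascade, and several of them are themselves induced by it, which closes a negative feedback loop. In the developing mouse heart, ligands from the epicardium and endocardium, among them Fgf9 and Fgf16, are known to act through Fgfr1 and Fgfr2 on the growth of the myocardium. The intracellular factors are not secreted and act mainly as partners of voltage-gated sodium channels.

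The tissue label fitted its defining markers. Levels are given as TPM, a transcript's share of a library corrected for its length, which can be compared between genes. The cardiomyocyte gene Tnnt2, encoding cardiac troponin T, stood at 6085 TPM in replicate 2 and 7677 TPM in replicate 1. By the limma test used below, 9 of 10 cardiomyocyte markers were higher than Fgfr1, as were 25.8% of all genes tested. Total expected counts, which are estimated reads per gene, were 39697992 in replicate 2 and 41883313 in replicate 1. The members took 0.0440% of the gene counts in replicate 2 and 0.0410% in replicate 1. Markers of organs next to the heart differed between the pools. Of the markers with a mean of at least 10 expected counts, 9 of 9 for thymus, 10 of 10 for liver, 8 of 9 for lung epithelium and 9 of 10 for neural crest, glia and neurons were more than 1.5-fold higher in replicate 2, as were 13.7% of all genes. Their summed levels in replicate 2 and replicate 1 were 174.79 and 16.84 TPM for thymus, 245.25 and 53.26 TPM for liver, 344.92 and 140.80 TPM for lung epithelium, and 83.83 and 14.85 TPM for the neural list. No marker of these 4 lists was at 0 in both libraries. Of the cardiomyocyte markers, 2 of 10 were lower in replicate 2 by that measure, as were 3.25% of all genes, and 0 were higher. In whole tissue of this kind, fewer cells of a type and less RNA per cell cannot be told apart.

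Fgfr1, Fgfr2 and Fgfr3 each carry a pair of alternative exons for the second part of the third immunoglobulin domain, which sets ligand preference. Use of the IIIb exon is typical of epithelium and that of the IIIc exon of mesenchyme, and Fgf7 and Fgf10 bind the IIIb form of Fgfr2. The exons of Fgfr3 are shown because the pools differed in how this receptor used them. Sequences were read from GENCODE M21 transcripts on mm10, 5′ to 3′ along the gene, and capitals mark bases that do not match the partner exon of the same gene in a global alignment. The Fgfr3 pair lies on the plus strand at chr5:33731281-33731431 (IIIb) and chr5:33732117-33732261 (IIIc).
Fgfr3 IIIb: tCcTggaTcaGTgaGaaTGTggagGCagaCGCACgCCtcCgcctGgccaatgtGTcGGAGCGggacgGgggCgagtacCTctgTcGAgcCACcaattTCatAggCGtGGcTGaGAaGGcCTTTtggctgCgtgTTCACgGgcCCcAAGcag
Fgfr3 IIIc: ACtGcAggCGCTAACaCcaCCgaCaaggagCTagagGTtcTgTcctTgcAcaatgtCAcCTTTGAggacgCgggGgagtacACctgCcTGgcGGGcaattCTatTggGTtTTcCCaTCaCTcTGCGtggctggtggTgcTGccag
The IIIb exon was 148 bases long in Fgfr2 and 151 bases in Fgfr3, and the IIIc exon was 145 bases in both. Identity between the IIIb and IIIc exons of one gene was 56.4% in Fgfr2, 51.9% in Fgfr3 and 52.5% in Fgfr1. The IIIc exons of different receptors were closer to each other, at 75.2% between Fgfr2 and Fgfr3, 80.7% between Fgfr1 and Fgfr2, and 77.4% between Fgfr1 and Fgfr3. The IIIb exon of Fgfr3 shared 56.2% of aligned bases with that of Fgfr2 and 53.8% with that of Fgfr1, while those of Fgfr1 and Fgfr2 shared 74.0%.

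Every intracellular factor and feedback gene and nearly every receptor was detected, while most ligands were scarce. At 1 TPM or more in both libraries, 17 of 33 members (51.5%) were detected, against 58.2% of all protein-coding genes. By class these were 4 of 4 intracellular factors, 6 of 6 feedback genes, 4 of 5 receptors, 3 of 15 secreted ligands and 0 of 3 endocrine ligands. The median over members of the mean TPM was 11.2 for receptors, 6.37 for feedback genes, 4.03 for intracellular factors, 0.405 for secreted ligands and 0.20 for endocrine ligands. The median of all protein-coding genes was 3.62 TPM. The 2 most abundant members were Fgf13, at the 90.6th percentile of protein-coding genes, and Spry2, at the 87.7th percentile.

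**Figure D1:**
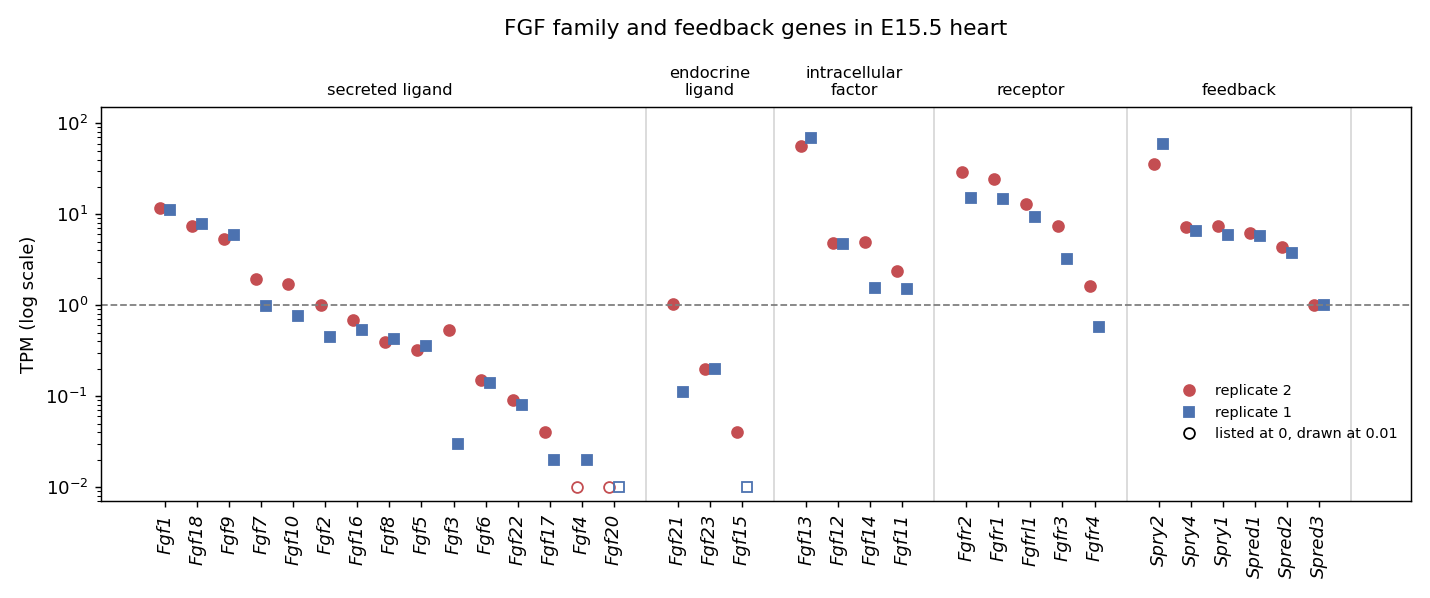
TPM (log scale) of each of the 33 members in replicate 2 (red circles) and replicate 1 (blue squares), grouped by class and ordered by mean; the dashed line marks 1 TPM and open symbols mark values listed at 0, drawn at 0.01. Fgf13, Spry2, Fgfr2 and Fgfr1 sit highest, and Fgf1, Fgf18 and Fgf9 are the secreted ligands above the line in both libraries.

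Among the secreted ligands, Fgf1, Fgf18 and Fgf9 stood apart from the rest. Fgf1, a ligand able to activate all FGF receptors, had 11.86 TPM in replicate 2 and 11.16 TPM in replicate 1. Fgf18, of the Fgf8 subfamily, had 7.48 TPM in replicate 2 and 7.86 TPM in replicate 1. Fgf9, which signals to IIIc receptors, had 5.40 TPM in replicate 2 and 5.97 TPM in replicate 1. The ranges of these ligands over the libraries did not overlap each other, nor those of any other secreted ligand.

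Fgf16, the close relative of Fgf9 named above for the heart, was far lower, with 0.69 TPM in replicate 2 and 0.54 TPM in replicate 1 from 31 and 27 expected counts. It served as the yardstick for the class, and each gene's log2(TPM + 0.1) minus that of Fgf16 in the same library was tested with limma over 15193 protein-coding genes. Of the 9 secreted ligands tested, 5 were higher than Fgf16 and 2 were lower, where 84.4% of all genes tested were higher and 6.50% were lower. The difference was 4.03 ± 0.15 (SE, n = 2 libraries) on the log2 scale for Fgf1 (limma adjusted p = 2.7e-05). It was 3.45 ± 0.17 for Fgf18 (limma adjusted p = 6.0e-05) and 3.02 ± 0.18 for Fgf9 (limma adjusted p = 0.00012).

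Fgf7 and Fgf10, mesenchymal ligands of the IIIb form of Fgfr2, were the remaining ligands above Fgf16. Fgf7 had 1.95 TPM in replicate 2 and 0.97 TPM in replicate 1, and exceeded Fgf16 by 1.06 ± 0.21 on the log2 scale (limma adjusted p = 0.0090). Fgf10 had 1.69 TPM in replicate 2 and 0.77 TPM in replicate 1, and exceeded Fgf16 by 0.81 ± 0.23 (limma adjusted p = 0.028). Both were therefore nearer to Fgf16 than to Fgf9, and the ranges of Fgf7 and Fgf10 overlapped. Without replicate 1 Fgf2, Fgf7 and Fgf10 would also count as detected.

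The ligands below Fgf16 were close to the limit of measurement. Fgf8, which shares a subfamily with Fgf18, had 0.39 TPM in replicate 2 and 0.42 TPM in replicate 1, from 7 and 14 expected counts, and the difference from Fgf16 was -0.49 ± 0.17 (limma adjusted p = 0.048). This call was lost with a pseudocount of 1 TPM or with all genes in the fit, and the sign turned (0.02) on the posterior mean TPM. Fgf5 had 0.32 TPM in replicate 2 and 0.36 TPM in replicate 1 and lay below Fgf16 by -0.69 ± 0.18 (limma adjusted p = 0.020), a call lost with a pseudocount of 1 TPM (limma adjusted p = 0.071) and without length normalization (-0.19, limma adjusted p = 0.37). Fgf2 and Fgf3 did not pass the test: Fgf2 had 1.01 TPM in replicate 2 and 0.45 TPM in replicate 1, and Fgf3 had 0.53 TPM in replicate 2 and 0.03 TPM in replicate 1. Part of the Fgf2 level was assigned to a short processed transcript that M21 lists as a gene of its own, Gm43439, with 48.95% of the Fgf2 TPM in replicate 2 and 32.05% in replicate 1. This split is uncertain, since Fgf2 had 13 expected counts in replicate 2 and 9.58 in replicate 1. The deposited interval of that transcript was 7.5e-06 to 1.21 TPM in replicate 2 and 1.3e-05 to 0.704 TPM in replicate 1.

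The other 5 secreted ligands, Fgf6, Fgf22, Fgf17, Fgf4 and Fgf20, had mean levels between 0 and 0.145 TPM and too few counts to be tested. Fgf20 was listed at 0 in both libraries, and 3 counts, the limit a count of 0 allows, would equal 0.111 TPM in replicate 2 and 0.0991 TPM in replicate 1. Fgf9, Fgf16 and Fgf20, which form one subfamily, thus summed to 6.09 TPM in replicate 2 and 6.51 TPM in replicate 1, most of it from Fgf9. Of the endocrine ligands, hormones that need a klotho co-receptor, Fgf21 was highest, with 1.04 TPM in replicate 2 and 0.11 TPM in replicate 1 from 25 and 3 counts. Fgf23 had 0.20 TPM in each library, and Fgf15 had 0.04 TPM in replicate 2 and was listed at 0 in replicate 1.

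Fgfr2 and Fgfr1 were the leading receptors, and Fgfr4 was the lowest. Fgfr2 (chr7:130162451-133123350, minus strand) had 29.17 TPM in replicate 2 and 15.09 TPM in replicate 1. Fgfr1 (chr8:25513654-25575718, plus strand) had 24.39 TPM in replicate 2 and 14.90 TPM in replicate 1. The ranges of these genes overlapped, and Fgfr2 minus Fgfr1 was 0.14 ± 0.34 on the log2(TPM + 0.1) scale, which did not pass the test (limma adjusted p = 0.72).

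The order of Fgfr2 and Fgfr1 turned on 1 transcript. Fgfr2-217 has 7 exons, and its first 2, with 314 of its 2425 bases, coincide with exons of Ctbp2, a transcriptional co-repressor gene upstream on the same strand with 39.98 TPM in replicate 2 and 33.84 TPM in replicate 1. This transcript held 8.81 TPM in replicate 2 and 4.31 TPM in replicate 1, so that share of the Fgfr2 level is uncertain, and it also sets the far end of the annotated Fgfr2 span. Without it Fgfr2 stood at 20.36 TPM in replicate 2 and 10.78 TPM in replicate 1, and Fgfr2 minus Fgfr1 was -0.26 in replicate 2 and -0.46 in replicate 1 on the log2 scale. This alternative was added after the values were seen and carries no test.

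The remaining receptors were lower than Fgfr1 in both libraries. Fgfrl1, a receptor without a kinase domain, had 13.13 TPM in replicate 2 and 9.36 TPM in replicate 1, a difference from Fgfr1 of -0.78 ± 0.34 (limma adjusted p = 0.032, and 0.060 with a pseudocount of 0.01 TPM). Fgfr3 (chr5:33721674-33737068, plus strand) had 7.38 TPM in replicate 2 and 3.25 TPM in replicate 1, a difference of -1.94 ± 0.34 (limma adjusted p = 4.1e-08). Fgfr4, a receptor with no alternative IIIb and IIIc exons, had 1.64 TPM in replicate 2 and 0.57 TPM in replicate 1, a difference of -4.15 ± 0.34 (limma adjusted p = 1.5e-32). In all, 3 of 4 receptors tested were lower than Fgfr1 and 0 were higher, where 52.0% of all genes tested were lower and 25.8% were higher. At an unadjusted p under 0.05 the count of higher receptors was also 0, and no other tool was run on this comparison. The spread of Fgfr1 itself entered the difference of every gene, and limma gave all genes the same error in this fit.

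The receptors used their alternative exons differently. Fgfr1 was measured mostly in transcripts with the IIIc exon, with 18.79 TPM in replicate 2 and 12.17 TPM in replicate 1. That was 77.05% of the gene's TPM in replicate 2 and 81.69% in replicate 1. Its IIIb transcripts held 0.45 TPM in replicate 2 and were listed at 0 in replicate 1. The IIIb share of the IIIb and IIIc transcripts of Fgfr1 was therefore 2.34% in replicate 2 and 0% in replicate 1.

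Fgfr2 and Fgfr3 had both forms, and the IIIb form differed more between the pools than the IIIc form. Fgfr2 IIIb transcripts held 7.50 TPM in replicate 2 and 2.04 TPM in replicate 1, and its IIIc transcripts 6.97 TPM in replicate 2 and 5.15 TPM in replicate 1. Fgfr3 IIIb transcripts held 3.05 TPM in replicate 2 and 0.49 TPM in replicate 1, and its IIIc transcripts 2.98 TPM in replicate 2 and 2.27 TPM in replicate 1. IIIb transcripts thus made up 51.8% of the IIIb and IIIc level of Fgfr2 in replicate 2 and 28.4% in replicate 1. For Fgfr3 the IIIb share was 50.6% in replicate 2 and 17.8% in replicate 1. The deposited posterior means gave 54.3% in replicate 2 and 31.9% in replicate 1 for Fgfr2, and 47.0% in replicate 2 and 23.7% in replicate 1 for Fgfr3. These shares do not depend on how the libraries are scaled, but each side is 1 library and the difference has no test.

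The deposited intervals show how firmly single transcripts were resolved. The leading Fgfr2 IIIb transcript, Fgfr2-211, had 5.08 TPM (interval 3.44 to 5.96) in replicate 2 and 1.22 TPM (interval 0.514 to 1.70) in replicate 1. The Fgfr3 IIIb transcript with reads, Fgfr3-211, had 3.05 TPM (interval 1.48 to 3.34) in replicate 2 and 0.49 TPM in replicate 1, where the upper bound was 0.932. For neither transcript did the intervals of the pools overlap. The other Fgfr2 IIIb transcript, Fgfr2-208, was less certain, since its 2.42 TPM in replicate 2 exceeded the upper bound of its own interval, 2.26.

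Genes linked to epithelium stood higher in replicate 2 as well. Epcam, an epithelial adhesion gene of the lung list, had 29.57 TPM in replicate 2 and 6.14 TPM in replicate 1. Esrp1 and Esrp2, splicing regulators of epithelium that favour the IIIb exon of Fgfr2, were looked up after these shares were seen. Esrp1 had 3.51 TPM in replicate 2 and 0.70 TPM in replicate 1, and Esrp2 had 5.03 TPM in replicate 2 and 1.22 TPM in replicate 1. The lung epithelium list was 8 of 9 higher, with summed levels of 344.92 TPM in replicate 2 and 140.80 TPM in replicate 1. The epicardial list had 1 of 9 higher, and 13.7% of all genes were higher by that measure. The part of these cells in the IIIb shares was not tested.

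**Figure D2:**
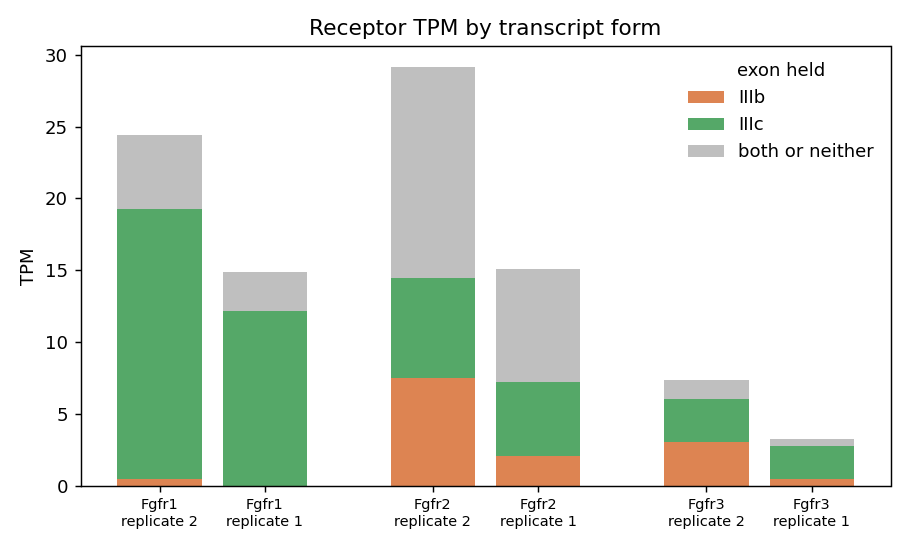
Stacked bars of TPM for Fgfr1, Fgfr2 and Fgfr3 in replicate 2 (left bar of each pair) and replicate 1, split into transcripts with the IIIb exon, with the IIIc exon, and with both or neither. IIIc makes up most of Fgfr1, the IIIb segments of Fgfr2 and Fgfr3 are larger in replicate 2, and about 51.4% of Fgfr2 on average lies in transcripts with neither exon.

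Transcripts with neither exon in its annotated form were common for Fgfr2 and scarcer for the others. They held 50.37% of the Fgfr2 TPM in replicate 2 and 52.33% in replicate 1, mostly in Fgfr2-217. Short retained-intron transcripts followed, with Fgfr2-221 at 14.24% in replicate 2 and 6.95% in replicate 1, and Fgfr2-224 at 0% in replicate 2 and 11.77% in replicate 1. Fgfr2-224 is 335 bases long and had 13.61 expected counts in replicate 1. Its deposited intervals overlapped, at 2.6e-05 to 2.01 TPM in replicate 2 and 7.0e-05 to 3.52 TPM in replicate 1. In TPM, transcripts with neither exon held 14.69 in replicate 2 and 7.90 in replicate 1. For Fgfr1 they held 18.66% in replicate 2 and 15.40% in replicate 1, led by the retained-intron transcript Fgfr1-206 with 13.31% in replicate 2 and 12.12% in replicate 1, which overlaps an alternative exon without holding it as annotated. For Fgfr3 they held 18.31% in replicate 2 and 15.19% in replicate 1, led by the retained-intron transcript Fgfr3-205 with 13.55% in replicate 2 and 11.33% in replicate 1, which overlaps an alternative exon in the same way.

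The receptors also differed in the exon for the first immunoglobulin domain, whose loss gives the shorter beta forms. Among protein-coding transcripts with the IIIb or IIIc exon, those that kept it made up 67.0% in replicate 2 and 83.8% in replicate 1 for Fgfr1. For Fgfr2 they made up 21.5% in replicate 2 and 24.1% in replicate 1, none of it in IIIb transcripts. All measured protein-coding IIIb and IIIc transcripts of Fgfr3 kept the exon, while a retained-intron IIIc transcript, Fgfr3-204, lacked it, with 0.18 TPM in replicate 2 and 0.08 TPM in replicate 1. The leading Fgfr1 transcript, Fgfr1-202, keeps the exon and had 32.35% of the Fgfr1 TPM in replicate 2 and 48.79% in replicate 1, while Fgfr1-203, which lacks it, had 24.17% in replicate 2 and 13.25% in replicate 1. Fgfr1-201, which keeps it, had 20.14% in replicate 2 and 17.53% in replicate 1.

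The leading IIIc transcript differed between the libraries for Fgfr3 and not for Fgfr2. For Fgfr2, Fgfr2-207 had 13.24% of the gene's TPM in replicate 2 and 22.67% in replicate 1, and Fgfr2-215 had 10.67% in replicate 2 and 11.50% in replicate 1. For Fgfr3, Fgfr3-209 had 30.88% in replicate 2 and 18.65% in replicate 1, whereas Fgfr3-201 had 1.59% in replicate 2 and 26.30% in replicate 1. The deposited intervals of Fgfr3-201 overlapped between the libraries, at 0.000139 to 1.83 TPM in replicate 2 and 8.3e-06 to 1.31 TPM in replicate 1, so this change of leader was within the uncertainty of assigning reads. Fgfr4 was measured almost wholly as Fgfr4-201, at 100% in replicate 2 and 97.4% in replicate 1. Fgfrl1 was mostly Fgfrl1-201, at 89.1% in replicate 2 and 84.1% in replicate 1.

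Of the intracellular factors, Fgf13 dominated and had the highest TPM of all members in each library. Fgf13 (chrX:59062145-59568071, minus strand), a modulator of sodium channels, had 56.93 TPM in replicate 2 and 68.76 TPM in replicate 1. Its range overlapped that of Spry2, which had 35.60 TPM in replicate 2 and 59.88 TPM in replicate 1. The short transcripts Fgf13-205 (575 bases) and Fgf13-206 (456 bases) held 8.73 and 9.34 TPM of the Fgf13 level in replicate 2. In replicate 1 they held 14.06 and 12.48 TPM. Fgf12 had 4.88 TPM in replicate 2 and 4.69 TPM in replicate 1, and Fgf14 had 4.99 TPM in replicate 2 and 1.56 TPM in replicate 1. Fgf11 had 2.39 TPM in replicate 2 and 1.49 TPM in replicate 1. All 3 were lower than Fgf13, where 76.5% of all genes tested were lower and 7.33% were higher. The differences on the log2 scale were -3.68 ± 0.41 for Fgf12 (limma adjusted p = 1.8e-18), -4.43 ± 0.41 for Fgf14 (limma adjusted p = 4.5e-26) and -4.98 ± 0.41 for Fgf11 (limma adjusted p = 1.7e-32). In this fit limma also gave all genes the same error, so 0.41 is not the spread of each gene. Fgf14 minus Fgf13 was -3.49 in replicate 2 and -5.37 in replicate 1. The range of Fgf14 overlapped those of Fgf12 and Fgf11, so the order below Fgf13 was not resolved for Fgf14.

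The channel genes that these factors bind or modulate were mostly low. Of 13 partners tested, 1 was higher and 12 were lower than Fgfr1, where 25.8% of all genes tested were higher and 52.0% were lower. Cacna1c, the main cardiac calcium channel subunit, was the highest, with 42.47 TPM in replicate 2 and 53.94 TPM in replicate 1. Scn1a, a channel of neurons, was lowest, with 0.13 TPM in replicate 2 and 0.05 TPM in replicate 1. Of the 13, 8 were more than 1.5-fold higher in replicate 2, where 13.7% of all genes were, and 0 were lower, where 3.25% were. Those were Scn2a, Scn3a, Scn4a, Scn8a, Scn2b, Scn3b, Scn4b and the scaffold Mapk8ip2, with levels between 0.20 and 4.51 TPM in replicate 2 and between 0.04 and 1.28 TPM in replicate 1. The neural marker list moved the same way, with 9 of 10 higher beside the same 13.7%, and its part in these values and in that of Fgf14 was not tested.

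Spry2 led the feedback genes by a wide margin. Spry2 (chr14:105891947-105896819, minus strand) had 35.60 TPM in replicate 2 and 59.88 TPM in replicate 1, and it exceeded Spry1 by 2.77 ± 0.29 on the log2 scale (limma adjusted p = 0.00063). Spry1 had 7.49 TPM in replicate 2 and 5.96 TPM in replicate 1. Spry4 had 7.18 TPM in replicate 2 and 6.47 TPM in replicate 1. The Sprouty genes together summed to 50.27 TPM in replicate 2 and 72.31 TPM in replicate 1.

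The Spred genes, whose proteins bind the RAS regulator neurofibromin, were lower as a set, with 11.64 TPM in replicate 2 and 10.54 TPM in replicate 1. Spred1 had 6.29 TPM in replicate 2 and 5.75 TPM in replicate 1. Neither Spry4 (0.03 ± 0.16) nor Spred1 (-0.15 ± 0.16) passed the test against Spry1 (limma adjusted p = 0.87 for Spry4 and 0.41 for Spred1), and the range of Spry1 overlapped those of both. Spred2 had 4.34 TPM in replicate 2 and 3.78 TPM in replicate 1 and was lower than Spry1 by -0.71 ± 0.15 (limma adjusted p = 0.0093). Spred3 had 1.01 TPM in each library and was lower by -2.61 ± 0.17 (limma adjusted p = 0.00012). Thus 1 of 5 feedback genes tested was higher than Spry1 and 2 were lower, where 53.0% of all genes tested were higher and 33.7% were lower. Without length normalization the Spred2 call was lost (-0.33, limma adjusted p = 0.11). In that setting Spry4 (0.93, limma adjusted p = 0.0047) and Spred1 (1.04, limma adjusted p = 0.0035) were higher than Spry1.

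Most members kept close levels in the 2 pools, and those that differed were mainly receptors and low ligands higher in replicate 2. Expected counts of replicate 2 over replicate 1 were compared on the scale of edgeR's TMM factors, which set the median gene near 0. Each side is 1 library, so no p-value is given and the 95% intervals cover counting error only. Of the 27 members with a mean of at least 10 counts, 7 were more than 1.5-fold higher in replicate 2, where 13.7% of all genes passed that mark, and 2 were lower, where 3.25% did. By class the higher ones were 3 of 5 receptors, 2 of 10 secreted ligands, 1 of 2 endocrine ligands and 1 of 4 intracellular factors, and the lower ones were 1 secreted ligand and 1 feedback gene.

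Among the receptors, Fgfr4 had 153 counts in replicate 2 and 58 in replicate 1, a log2 ratio of 1.33 (interval 0.88 to 1.79). Fgfr3 had a log2 ratio of 0.89 (0.71 to 1.07), and Fgfr2 one of 0.71 (0.61 to 0.81), which turned to -0.12 when the libraries were scaled by spike-in counts. Fgfr1 had a log2 ratio of 0.42 (0.33 to 0.51) on TMM-scaled counts, inside the 1.5-fold mark, but 0.71 on the deposited TPM and -0.41 with spike-ins. Fgfr3 stayed above 0 with spike-ins, at 0.055, and Fgfr4 at 0.49. Spike-ins took 3.12% of counts in replicate 2 and 1.58% in replicate 1, and scaling by them lowered every ratio by 0.83. Each direction here is therefore relative to the median gene, and with spike-ins 2 members, Fgf3 and Fgf21, were higher past 1.5-fold and 15 of 27 were lower in replicate 2, where 5.41% of all genes were higher and 74.7% were lower.

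Fgf14 had 481 counts in replicate 2 and 175 in replicate 1, a log2 ratio of 1.39 (1.13 to 1.64). Fgf10 had 197 counts in replicate 2 and 100 in replicate 1, a ratio of 0.91 (0.55 to 1.27). The largest ratios belonged to genes with few counts. Fgf3 had 34 counts in replicate 2 and 2 in replicate 1, and Fgf21 had 25 counts in replicate 2 and 3 in replicate 1, with intervals of 2.05 to 7.12 for Fgf3 and 1.27 to 5.36 for Fgf21.

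Spry2 was the well-measured member that went the other way, with 2050 counts in replicate 2 and 3861 in replicate 1, a log2 ratio of -0.99 (-1.06 to -0.91). The other feedback genes had ratios between -0.30 (Spred3) and 0.09 (Spry1). Fgf8 was the other lower member, at -1.07, and its interval of -2.62 to 0.33 included 0. Fgf13 was also lower, at -0.44 (-0.52 to -0.37), but within the 1.5-fold mark. The cardiomyocyte list summed to 25882 TPM in replicate 2 and 29920 TPM in replicate 1, and its part in the Spry2 and Fgf13 values was not tested.

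**Figure D3:**
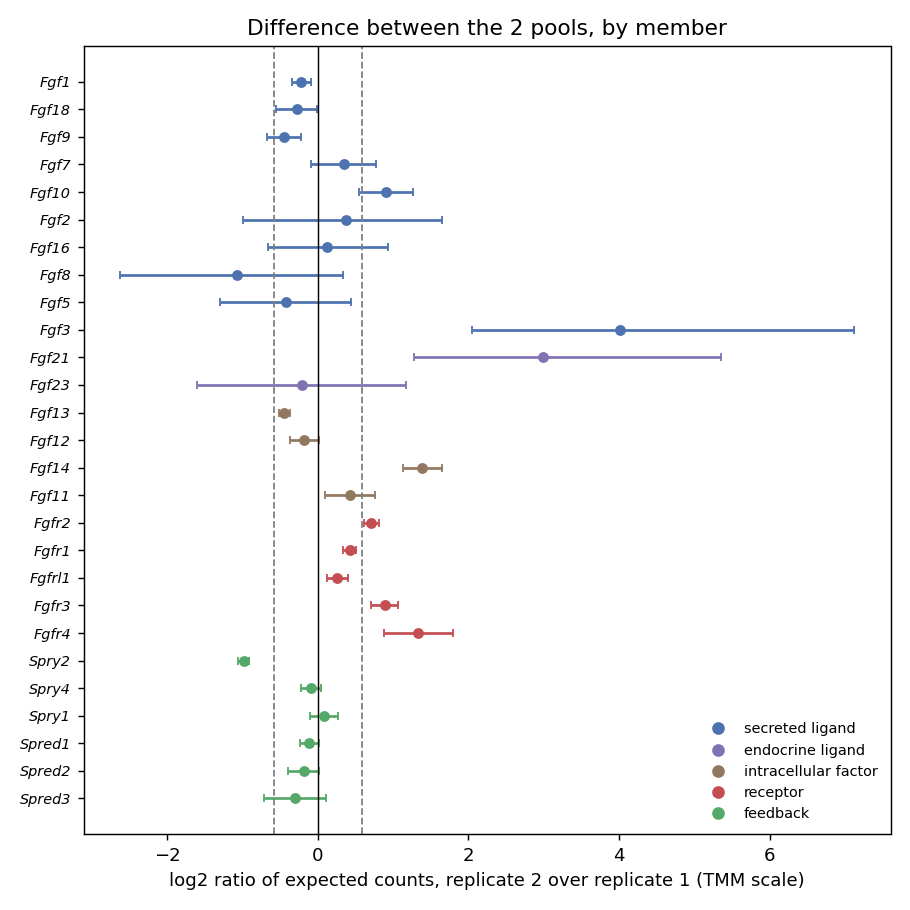
Log2 ratio of expected counts, replicate 2 over replicate 1, on the TMM scale for the 27 members with a mean of at least 10 counts; bars are exact 95% intervals for counting error and dashed lines mark 1.5-fold. Receptors lie right of 0, Spry2 lies at -0.99, and Fgf3 and Fgf21 lie farthest right with the widest intervals among the higher genes; scaling by spike-ins would shift every point by -0.83 and put Fgfr1, Fgfr2 and Fgfrl1 left of 0.

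Genes of the matrix and of the cascade lay on both sides of Fgfr1, while the other inhibitors and the channel partners lay mostly below it. Of 94 genes in 6 lists, 93 were tested against Fgfr1, of which 30 were higher, 49 lower and 14 not called, beside a background of 25.8% higher and 52.0% lower. The median difference from Fgfr1 of all genes tested was -0.84 on the log2 scale.

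Heparan sulfate proteoglycans and their enzymes, which hold ligands at receptors, had 11 higher, 7 lower and 3 not called of 21, with a median difference of 0.81. Among all genes tested, 25.8% were higher and 52.0% were lower. Gpc3, a glypican, was highest, with 359.64 TPM in replicate 2 and 370.20 TPM in replicate 1. Hs3st1, a sulfotransferase, was lowest, with 5.57 TPM in replicate 2 and 4.92 TPM in replicate 1. None of the 21 differed by more than 1.5-fold between the pools, where 13.7% of all genes were higher in replicate 2 and 3.25% were lower.

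The co-receptors and ligand carriers split into 2 higher, 6 lower and 1 not called of 9 tested, beside 25.8% higher and 52.0% lower of all genes. Cdh2, encoding N-cadherin, was highest, with 118.60 TPM in replicate 2 and 136.92 TPM in replicate 1. The klotho co-receptors of endocrine FGFs were near the bottom, with Klb at 0.04 TPM in replicate 2 and 0.01 TPM in replicate 1, and Kl at 0.19 TPM in replicate 2 and 0.26 TPM in replicate 1. Beyond 1.5-fold, Fgfbp1, Flrt1 and L1cam were higher and Kl was lower in replicate 2, where 13.7% of all genes were higher and 3.25% were lower. Fgfbp1, which releases FGFs from the matrix, had 4.74 TPM in replicate 2 and 1.52 TPM in replicate 1, Flrt1 had 2.07 TPM in replicate 2 and 1.11 TPM in replicate 1, and the neuronal adhesion gene L1cam had 1.92 TPM in replicate 2 and 0.21 TPM in replicate 1.

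Intracellular transducers had 12 higher, 7 lower and 6 not called of 25, beside 25.8% higher and 52.0% lower of all genes tested. Akt1, a survival kinase, was highest, with 139.29 TPM in replicate 2 and 115.48 TPM in replicate 1, and Sos1, a RAS activator, was lowest, with 2.29 TPM in replicate 2 and 1.86 TPM in replicate 1. The other negative regulators had 0 higher, 9 lower and 2 not called of 11, beside the same shares of all genes. They also had 0 higher at an unadjusted p under 0.05. Their highest members were the 2 not called, Rasa1, a RAS inhibitor with 32.85 TPM in replicate 2 and 26.91 TPM in replicate 1, and Dusp6, an ERK phosphatase with 29.58 TPM in replicate 2 and 28.26 TPM in replicate 1. Il17rd, the inhibitor also called Sef, was lowest, with 0.70 TPM in replicate 2 and 0.68 TPM in replicate 1.

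The transcriptional targets had 4 higher, 8 lower and 2 not called of 14, near the 25.8% higher and 52.0% lower of all genes tested. Ets2 was highest, with 53.50 TPM in replicate 2 and 46.82 TPM in replicate 1. The 2 not called were Etv1, with 20.35 TPM in replicate 2 and 23.02 TPM in replicate 1, and Etv5, with 22.08 TPM in replicate 2 and 13.21 TPM in replicate 1, both ETS factors induced by FGF signalling. Etv4, of the same family, had 4.79 TPM in replicate 2 and 2.92 TPM in replicate 1. Shh, the hedgehog ligand, was lowest, with 0.60 TPM in replicate 2 and 0.28 TPM in replicate 1. Shh and its target Gli1 (1.11 TPM in replicate 2 and 0.52 TPM in replicate 1) were the genes of this list past 1.5-fold, both higher in replicate 2. They were 2 of 14 genes, beside 13.7% of all genes higher by that measure.

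**Figure D4:**
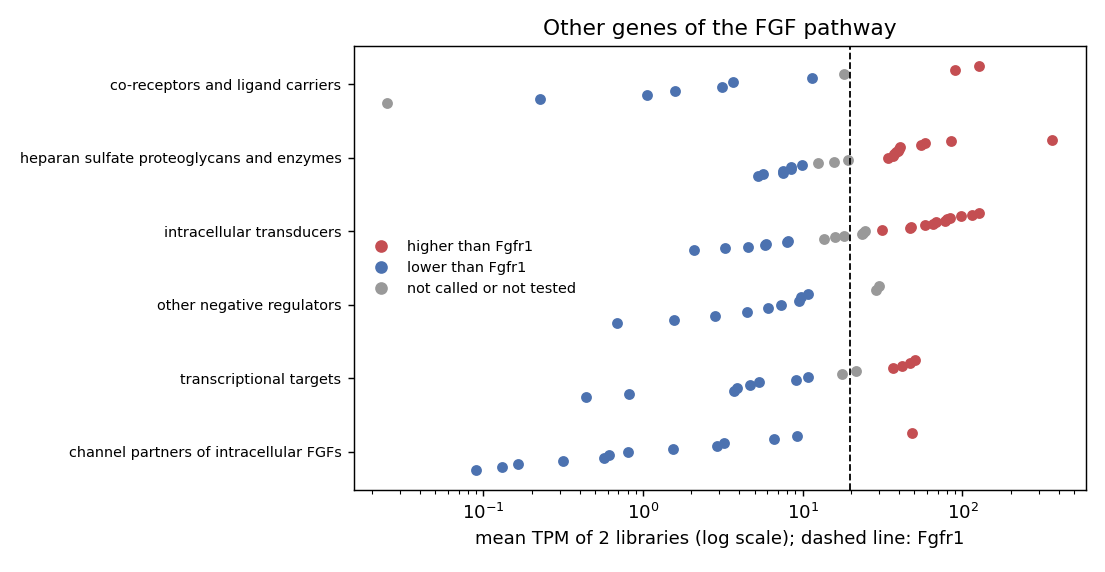
Mean TPM over the 2 libraries (log scale) of each of the 94 other pathway genes, by list; points are coloured by the limma call against Fgfr1, whose mean is the dashed line. Proteoglycans and transducers lie on both sides of Fgfr1, and the negative regulators lie to its left except Rasa1 and Dusp6, which were not called.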

How the data were processed

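Total RNA above 200 bases from 10 ng of input was sequenced from 2 pools of B6NCrl hearts at day 15.5. Per the file headers, the authors aligned reads to mm10 with GENCODE M4 and deposited, per gene and per transcript, expected counts (estimated reads), TPM (per effective length, scaled to the same total in each library, spike-ins included), a posterior mean TPM with interval bounds of unstated level, and each transcript's percent of its gene's TPM. The labels and headers name no quantifier and do not say whether counting used strand. Per the labels the pools are biological replicates, and p-values measure only the spread between these 2 libraries.

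Gene symbols, exons and coordinates came from GENCODE M21 on mm10, which matched 42462 of 43346 Ensembl gene identifiers. Transcripts were classed by the IIIb and IIIc exons they hold. One read on 1 kb of effective length equalled 0.0345 TPM in replicate 2 and 0.0308 TPM in replicate 1. Exons of Fgfr1, Fgfr3, Spry1, Fgf14, Fgf10, Spred3, Fgf2, Fgf22, Fgf15 and Fgf20 overlap a gene on the opposite strand, so their reads may be shared.

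Levels were compared within a library by limma 3.58.1 (R 4.3.3; two-sided, Benjamini-Hochberg over 15193 protein-coding genes with a mean of at least 10 expected counts) on log2(TPM + 0.1) minus that of Fgfr1, Fgf16, Fgf13 or Spry1, with an adjusted p threshold of 0.05. A difference of low genes is understated on this scale. Libraries were compared on expected counts with TMM factors (edgeR 4.0.16), with exact intervals (scipy 1.17.1) that cover counting error only. The fit was tested on simulated data. Alternatives were other pseudocounts, filters, posterior means, no length normalization, other scalings (DESeq2 1.42.0, total counts, spike-ins), other thresholds, protein-coding transcripts only and leaving out each replicate. The members and lists were chosen with earlier results of these data known. Members with a mean of at least 1 TPM were given per library; for pathway lists, the highest, the lowest and those past 1.5-fold between libraries were named, and other names were added after values were seen. Some sequences and 1 gene of a list are not reported here.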

Additional observations from a re-analysis of the deposited data

How the results depend on the processing

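The 2 pools of 1 group hold no contrast of conditions and no measure of variation between embryos. Pairing of samples between groups was not possible because there is only 1 group, while genes were compared with an anchor gene inside each library. Genes under 10 counts and minor transcripts are limited by depth. The cause of each change below was not tested.

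Without length normalization, Fgfr2 minus Fgfr1 was -0.47, Fgf2 minus Fgf16 -1.12 and Spred1 minus Spry1 1.04 on the log2 scale, and 3 feedback genes were higher and 1 lower than Spry1 (1 and 2 per length). Fgfr2 minus Fgfr1 was -0.36 without Fgfr2-217. Fgf8 minus Fgf16 was 0.025 on the posterior mean. Leaving out replicates, Fgf2 minus Fgf16 ranged from -0.22 to 0.49 and Spry4 minus Spry1 from -0.060 to 0.12. Secreted ligands called lower than Fgf16 (2) became 0 with a pseudocount of 1 TPM, 7 with no filter and 1 on the posterior mean. For these counts against Fgf16 and Spry1, the shares of all genes called in the same settings are not given here. Detected secreted ligands (3) became 6 at 0.5 TPM, 5 on the posterior mean and 3 to 6 leaving out replicates, with a class median of 0.625 on the posterior mean and 0.42 to 0.53 leaving out replicates. Detected endocrine ligands ranged from 0 to 1, with a median of 0.11 to 0.20, and detected intracellular factors (4) became 2 at 2 TPM. Members higher in replicate 2 (7) became 2 with spike-ins (5.41% of all genes), 4 at 2-fold (8.52%) and 11 on deposited TPM (20.0%). Members lower (2) became 15 with spike-ins (74.7%), 1 at 2-fold (0.638%) and 1 on deposited TPM (1.45%). Relative to TMM, which put the median gene at 0.0025, spike-ins moved every ratio by -0.83 and total counts by 0.17, and on deposited TPM the median gene was at 0.23. Fgfr2 alone changed sign with spike-ins among those called (-0.12). The Fgfr1 IIIc share of the gene's TPM (79.4%) was 73.5% on the posterior mean and 98.8% over protein-coding transcripts, and the Fgfr2 IIIc share (29.0%) was 37.4% over protein-coding transcripts. The other 102 recomputed values of the main comparisons stayed within 1.5 times the reported count or, for levels and shares, within the replicate spread. For transcript shares, leaving out a replicate could not fail this rule, because a mean of 2 libraries always lies within their spread of each value. The same holds for the class medians of receptors (11.245, from 13.13 and 9.36) and intracellular factors (4.03, from 4.935 and 3.125). Those shares and medians with a replicate left out are among the 102 and say nothing about stability. The Fgfr3 IIIc share of the gene's TPM (55.11%) was 40.41% without replicate 1 and 69.81% without replicate 2.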

Other observations

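Transcripts of the ligands and intracellular factors, looked at after their values were seen, differed between the pools for several genes. The share changed most for the low gene Fgf8, where Fgf8-201 held 0% in replicate 2 and 100% in replicate 1, followed by Fgf7, where Fgf7-203 held 36.57% in replicate 2 and 0% in replicate 1. Both changes were within the uncertainty of assigning reads, since the deposited intervals overlapped between the pools. For Fgf8-201 they were 4.9e-07 to 0.191 TPM in replicate 2 and 0.0208 to 0.477 TPM in replicate 1. For Fgf7-203 they were 0.281 to 1.31 TPM in replicate 2 and 7.6e-06 to 0.330 TPM in replicate 1. Fgf14-201 held 43.19% of the Fgf14 TPM in replicate 2 and 11.02% in replicate 1, with 2.16 TPM (deposited interval 1.52 to 2.74) in replicate 2 and 0.17 TPM (0.0599 to 0.351) in replicate 1. The other Fgf14 transcript, Fgf14-202, differed less, with 2.84 TPM in replicate 2 and 1.39 TPM in replicate 1. Fgf18-201 held 71.23% of the Fgf18 TPM in replicate 2 and 50.54% in replicate 1, but its intervals overlapped, at 3.50 to 6.85 TPM in replicate 2 and 2.54 to 5.65 TPM in replicate 1. Fgf13 was split over 4 transcripts with more than 10% each, led by Fgf13-202 with 37.75% in replicate 2 and 34.44% in replicate 1. Fgf1 was mostly Fgf1-201, with 67.71% in replicate 2 and 73.37% in replicate 1. Each side is 1 library, and these differences have no test.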
